A study of Mus musculus with 7 samples.

Results

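Embryonic stem cells (ESCs) and uninduced mouse embryonic fibroblasts (MEFs), both wild type (WT) for Utx, were compared as the end point and the start point of reprogramming. Each was measured on 1 Affymetrix array out of the 7 in the series. The ESCs were of the V6.5 line with genotype Utx +/Y. The fibroblasts were V19-OSKM MEFs of genotype Utx +/Y kept without doxycycline (DOX), so they carried the inducible factors Oct4, Sox2, Klf4 and Myc (OSKM) without the inducing drug. Of the 21811 array rows, 14894 had 1 gene symbol, and these gave 13562 genes, the row with the highest mean standing for a gene with several. The other arrays used for reference were Utx knockout (KO) V6.5 ESCs (Utx -/Y) and V19-OSKM MEFs labelled Utx -/Y without and with DOX. WT MEFs with DOX and Nanog KO fibroblasts that had carried OSKM on a lentivirus for 8 days entered the choice of row for genes with several rows, the floor described below and the plot of levels on the 7 arrays. The labels list the same 2i/LIF medium for every sample, the fibroblasts included, and give neither passage, embryo age nor the number of animals behind a culture. With 1 array per condition no difference has a replicate check, and no p-value is given.

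Embryonic stem cells are derived from the inner cell mass of the blastocyst and divide without limit in culture. Their state is held by a small network of transcription factors around Oct4, Sox2 and Nanog, they adhere to each other through E-cadherin, and they cycle with a very short first gap phase. Embryonic fibroblasts are mixed mesenchymal cells of the body wall that secrete collagen and other matrix, pull on it through actin fibres and integrins, and leave the cycle when crowded.

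Several values bear on the labels. Pou5f1, which encodes Oct4, read 12.14 in WT ESCs and 8.19 in uninduced WT MEFs on the log2 scale, the latter above the floor. In the library labelled KO with DOX, where DOX should have induced it, Pou5f1 read 5.12, and in the one labelled KO without DOX it read 11.26, so both are named by label only. Xist, the RNA that coats the inactive X chromosome, read 8.10 in the WT ESCs and 11.06 in the WT MEFs, although both are labelled as carrying a Y. The Y-linked gene Eif2s3y read 8.52 and 8.28, Uty read 8.44 and 7.34, and Kdm5d read 4.49 and 6.93. Kdm6a, which encodes Utx, read 9.12 in WT ESCs and 8.22 in WT MEFs, a difference of 0.90, and its relative Kdm6b read 8.83 and 8.78. Of these Y-linked genes only Eif2s3y lay clearly above the floor of 7.34 in WT MEFs, with Uty at the floor and Kdm5d under it. The WT MEF array thus showed high Xist together with signal from Eif2s3y. Whether its culture mixed male and female cells was not tested.

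Genes were counted when they lay 2-fold or more apart and the higher value exceeded a floor of 7.34, the 40th percentile of all values in the table. Of 9673 genes above the floor, 1406 were higher in ESCs (14.5%) and 1912 were higher in MEFs (19.8%), while 6355 lay within 2-fold. In either direction that was 34.3%. These percentages are the background for each count of list members in the WT pair below. With KO ESCs in place of WT ESCs, 1696 of 9774 genes above the floor were higher and 2091 lower. With the MEFs labelled KO with DOX in place of WT MEFs, 1390 of 9630 were higher and 1918 lower. Counts between KO ESCs and MEFs labelled KO have their own background, given further below. The median difference over these 9673 genes was 0.01, so the arrays were centred alike. Differences of 16-fold or more (4 on the log2 scale) numbered 84 towards ESCs and 101 towards MEFs. In 734 of the ESC-high genes and in 1038 of the MEF-high genes the lower value lay under the floor. For these a fold is given only as a lower limit, with the low side set to the floor, while log2 differences use the values as deposited.

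**Figure D1:**
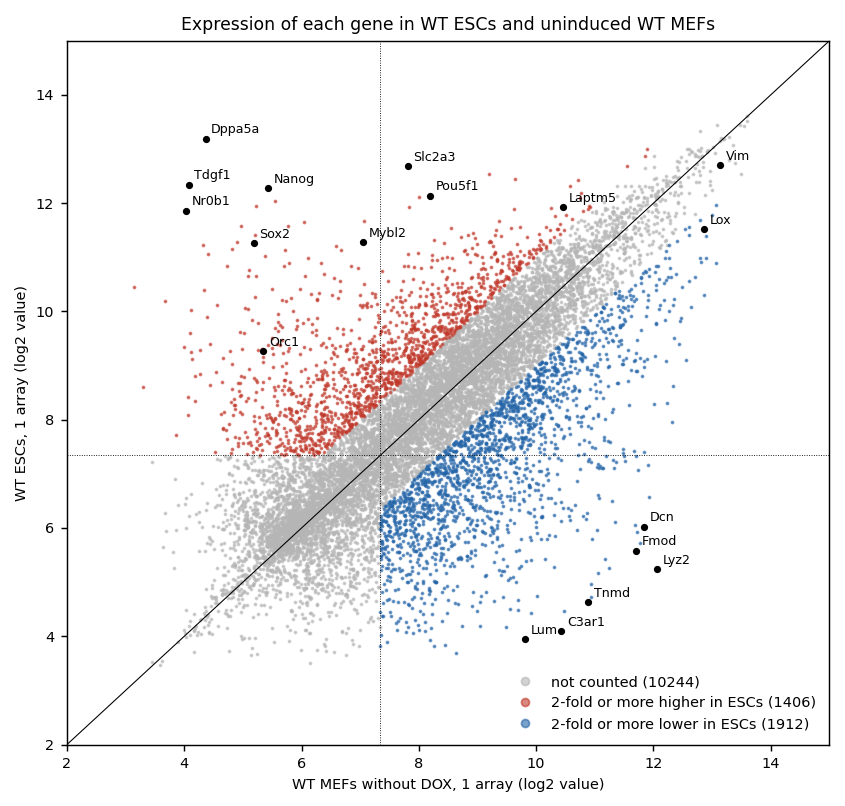
Each point is 1 gene, with its log2 value in WT MEFs without DOX on the horizontal axis and in WT ESCs on the vertical axis. Red points (1406) are counted as higher in ESCs, blue points (1912) as lower, grey points are not counted, the solid line marks equal values and the dotted lines mark the floor of 7.34. Black points carry gene names. Dppa5a and Tdgf1 lie farthest above the line and Lyz2 farthest below it.

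The 15 genes with the largest differences in deposited values towards ESCs were Dppa5a, Tdgf1, Nr0b1, Zfp980, Epp13, Nanog, Lncenc1, Apela, AU018091, Zfp640, Tfcp2l1, Utf1, Esrrb, Pla2g1b and Triml2. Dppa5a, an RNA-binding protein of pluripotent cells, read 13.19 in ESCs and 4.36 in MEFs, at least 57.7-fold higher. Tdgf1, the Nodal co-receptor Cripto, read 12.34 and 4.07, and Nr0b1, a nuclear receptor without a DNA-binding domain of the usual kind, read 11.86 and 4.03. Lncenc1 is a long non-coding RNA of ESCs and read 11.95 and 5.23. Apela encodes a small secreted ligand of the apelin receptor and read 11.06 and 4.41. All 15 were under the floor in MEFs and at least 7.20-fold higher in ESCs, so their order rests on values under the floor. With the low side at the floor, Zfp980 was at least 8.69-fold and Tfcp2l1 at least 25.9-fold higher.

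The 15 largest in deposited values towards MEFs were Lyz2, C3ar1, Tnmd, Ccl3, Fmod, Gjb2, Wfdc17, C1qb, Ptn, Abi3bp, Lum, Dcn, Lrrc17, Fcer1g and Islr. Lyz2, a lysozyme of macrophages, read 12.06 in MEFs and 5.24 in ESCs, at least 26.4-fold lower in ESCs. Tnmd, a tendon membrane protein, read 10.89 and 4.62. Fmod, a small proteoglycan that binds collagen, read 11.71 and 5.58, and Ptn, a heparin-binding growth factor, read 10.93 and 4.97. All 15 were under the floor in ESCs and at least 5.56-fold lower there, and their order has the same limit. C3ar1 was at least 8.51-fold and Dcn at least 22.7-fold lower.

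Pluripotency genes were higher in ESCs almost without exception. Below, a gene is called higher or lower only if it met this rule. List medians of the WT pair cover all measured members unless stated otherwise, whereas counts cover members above the floor. Of 30 pluripotency genes that passed the floor, 29 were higher in ESCs and 0 were lower. The median difference over 31 measured members was 4.48, against 0.03 over all genes. Klf2 alone among the 30 stayed within 2-fold, at 0.98. Nanog, the homeodomain factor of the network, read 12.28 in ESCs and 5.43 in MEFs. Esrrb, an orphan receptor that binds with Nanog, read 11.15 and 4.81, and Tfcp2l1, a factor downstream of LIF, read 12.03 and 5.55. The OSKM genes did not move alike. Sox2 differed by 6.08, Pou5f1 by 3.94 and Klf4 by 1.64, whereas Myc, at 9.39 in ESCs and 10.99 in MEFs, differed by -1.60. The median over the list was 3.59 between the KO ESCs and the MEFs labelled KO without DOX.

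RefSeq promoter windows (GRCm38.p6) were found for 10731 of the 13562 genes, and the 250 bases before the most upstream listed start were searched on both strands. The core of the octamer that POU factors such as Oct4 bind, TTTGCAT, was present in 3 of the 19 pluripotency genes with a window, Nanog, Sox2 and Zfp42, and in 2.74% of the windows of 7800 genes above the floor. It also lay in 2 of 19 fibroblast and 2 of 24 contractile gene windows, lists that were lower in ESCs. The Nanog window (chr6:122707239-122707488, + strand) is shown because Nanog had the largest deposited difference among these 3, with the octamer core in capitals.
Nanog: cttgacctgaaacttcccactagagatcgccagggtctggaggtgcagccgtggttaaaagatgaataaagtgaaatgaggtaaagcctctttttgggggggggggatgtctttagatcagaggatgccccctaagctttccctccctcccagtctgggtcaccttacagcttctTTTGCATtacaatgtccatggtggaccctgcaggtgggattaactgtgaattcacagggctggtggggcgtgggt

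Genes of later or other lineages were mixed. Of 14 measured primed and early lineage genes 8 passed the floor, and 5 of these were higher in ESCs and 0 lower. All 8 exceeded the floor in WT ESCs and 2 did so in WT MEFs, so the filter favoured this direction. The median over the 14 was 0.43. Nodal, a ligand of the early embryo, read 10.01 in ESCs and 5.86 in MEFs, and Otx2, a factor of the epiblast and forebrain, read 7.38 and 4.80. Of 13 measured germ cell genes 5 passed the floor, and 4 of these were higher in ESCs. In WT MEFs 0 of the 13 exceeded the floor, so the direction of this count followed from the filter. The median over the 13, values under the floor included, was 1.34. Kit, a receptor of germ and blood stem cells, differed by 3.97, Tdrd12, a piRNA pathway protein, by 3.84 and Tex15 by 3.26. Primitive endoderm and trophoblast genes had 3 of 6 higher and 2 lower. Plet1 differed by 3.81 and the laminin gene Lama1 by 3.32 towards ESCs, whereas Dab2, an endocytic adaptor, read 7.59 in ESCs and 10.90 in MEFs. Endothelial genes had 2 of 5 members higher, among them Pecam1, an adhesion molecule also known in ESCs, at 8.69 and 5.24, and 1 lower. Of 11 measured skeletal muscle genes 3 passed the floor. Neural genes had 6 of 9 past the floor, 3 of them higher in ESCs and 3 lower. Fabp7 and Nes, genes of neural progenitors and some mesenchymal cells, differed by -3.73 and -2.76.

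Mesenchymal and fibroblast genes were lower in the WT ESCs, but many remained well above the floor there. Of 33 members that passed the floor, 31 were lower in ESCs and 0 higher, with a median difference of -2.77 over 34 members. Dcn, a small proteoglycan, read 6.03 in ESCs and 11.85 in MEFs, and Pdgfra, a receptor for platelet-derived growth factor, read 5.88 and 10.22. By contrast Lox, a crosslinking enzyme of collagen and elastin, read 11.51 in WT ESCs against 12.86 in MEFs, Col1a1 read 10.30 against 12.86, and Vim and Fn1 stayed within 2-fold. The median level of the list was 8.26 in WT ESCs, 6.46 in KO ESCs and 11.15 in WT MEFs. With the KO ESC array in place of the WT one, an alternative chosen after the data were seen, 32 of 33 members were lower and the median was -4.70. The part of fibroblast RNA in the WT ESC library was not tested, and in bulk RNA fewer cells of a type and less RNA per cell cannot be told apart.

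**Figure D2:**
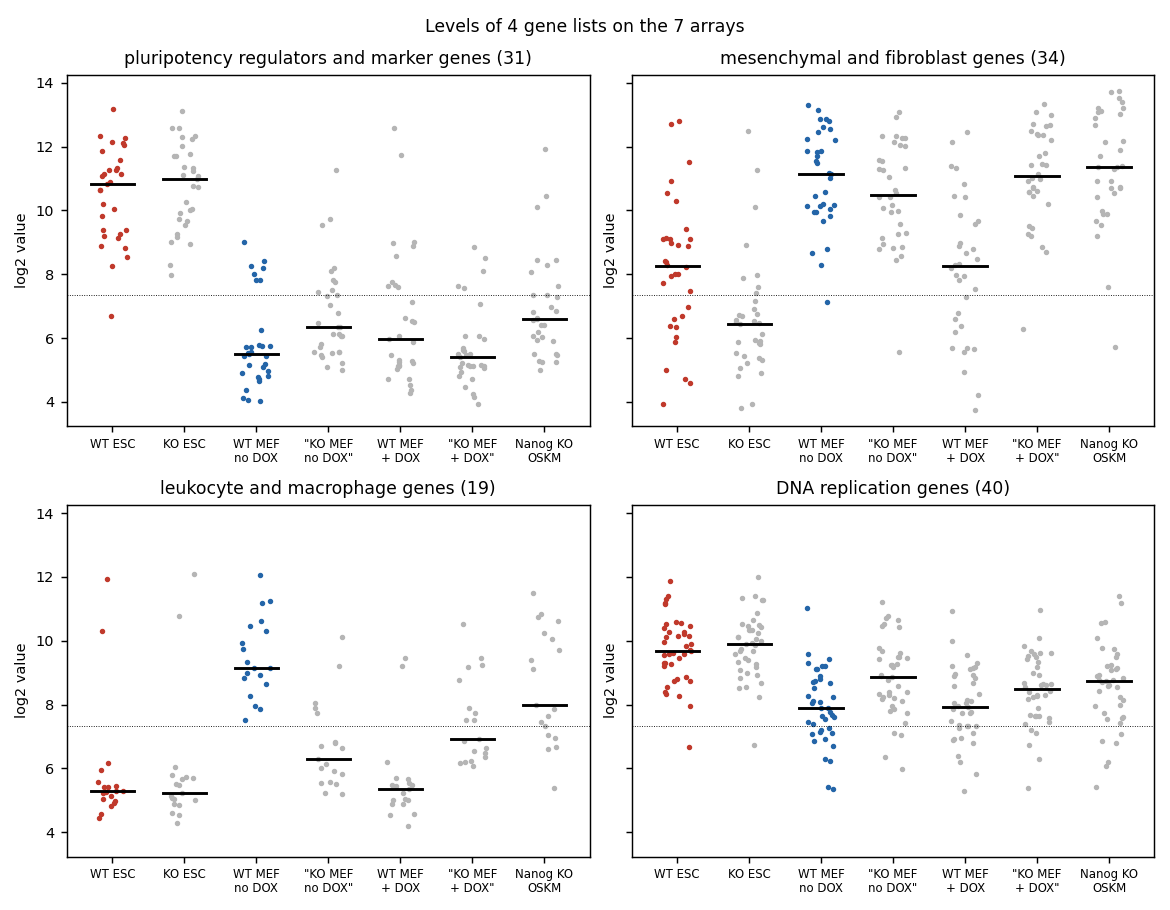
Points are the log2 values of the members of 4 gene lists on each of the 7 arrays, black bars are list medians and the dotted line is the floor of 7.34. Names in quotation marks are arrays known by label only. Fibroblast genes have a median of 8.26 in WT ESCs and 6.46 in KO ESCs, and macrophage genes have their highest median, 9.15, in WT MEFs without DOX.

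Matrix genes followed the same order. Of 40 matrix and matrix enzyme genes above the floor, 35 were lower in WT ESCs and 0 higher, with a median of -2.28. Fbn2, a microfibril protein, read 6.23 in ESCs and 10.80 in MEFs, Aspn, a proteoglycan of cartilage and tendon, read 7.32 and 11.70, and Mmp2, a gelatinase, read 8.30 and 12.23. With KO ESCs in place of WT ESCs the count was 38 of 40 and the median -4.38. Of 17 collagen genes above the floor, 15 were lower and 1 higher. In WT MEFs 16 members exceeded the floor and in WT ESCs 9, so the filter favoured this direction. Col6a3, a chain of the beaded-filament collagen, read 6.49 and 11.30, and the fibrillar chains Col3a1 and Col1a2 differed by -4.01 and -3.04. Col10a1, the collagen of growth cartilage, was the exception at 1.54, and it differed by -0.89 between KO ESCs and the MEFs labelled KO with DOX.

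Contractile genes were lower in ESCs, at a median difference of -1.40, against -2.28 for matrix genes. Of 28 actin and smooth muscle genes, 22 were lower in WT ESCs and 0 higher. Tpm4, a tropomyosin of stress fibres, read 10.63 in ESCs and 12.71 in MEFs, and Vcl, the focal adhesion protein vinculin, read 10.12 and 12.11. Acta2, the smooth muscle actin, stayed within 2-fold. The median was -2.86 with KO ESCs in place of WT ESCs, with 24 of 28 lower. With the MEFs labelled KO with DOX in place of WT MEFs, 16 of 27 were lower. YAP and TEAD genes and targets had 8 of 17 members lower and 1 higher, at a median of -0.78. With KO ESCs in place of WT ESCs 13 of 17 were lower, and with the MEFs labelled KO with DOX in place of WT MEFs 6 of 17. The target genes Ccn1 and Ankrd1 differed by -1.67 and -1.72, and Tead4, the TEAD factor of the early embryo, by 1.88.

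The TEAD sequence GGAATG, read on both strands, lay in the windows of 11 of 24 contractile genes and of 10.2% of the 7800 genes above the floor. The CArG box, the serum response factor site, lay in 4 of the 24 windows and in 1.22% of all. No match of the TEAD letters overlapped a CArG box in the window shown. Vcl was the contractile gene whose window held both, and this window (chr14:20929148-20929397, + strand) is printed with both sites in capitals, the CArG box first.
Vcl: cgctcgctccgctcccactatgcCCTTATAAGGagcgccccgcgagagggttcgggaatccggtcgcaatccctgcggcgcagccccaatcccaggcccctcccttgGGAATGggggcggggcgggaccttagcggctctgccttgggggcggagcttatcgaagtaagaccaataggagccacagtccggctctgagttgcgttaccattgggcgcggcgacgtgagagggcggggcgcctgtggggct

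The WT MEF array also carried high levels of macrophage genes. All 19 measured leukocyte and macrophage genes passed the floor, 17 were lower in ESCs and 1 was higher, and the median difference was -3.76. C1qb, a chain of complement C1q, read 11.25 in MEFs and 5.26 in ESCs. Adgre1, the macrophage marker known as F4/80, read 9.91 and 4.43, and Csf1r, the receptor for colony stimulating factor, read 9.15 and 4.82. The median level of the list was 9.15 in WT MEFs and 5.28 in WT ESCs. With the MEFs labelled KO with DOX in place of WT MEFs the median was -1.55, and of 9 members past the floor there 7 were lower and 2 higher. Laptm5, a lysosomal membrane protein of leukocytes, was the gene that went against the list, at 11.92 in ESCs and 10.46 in MEFs. Cd68, another lysosomal protein, stayed within 2-fold.

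Of 28 measured interferon-stimulated and interferon receptor genes 19 passed the floor, and 12 of these were lower in ESCs and 1 higher. All 19 exceeded the floor in WT MEFs and 8 members did so in WT ESCs, so the filter favoured this direction. The median over the 28, values under the floor included, was -1.54. The receptor subunits Ifngr1, Ifngr2, Ifnar1 and Ifnar2 differed by -3.04, -2.25, -1.40 and -1.65. The induced genes Ifit1 and Ifit3 read 7.74 and 7.91 in MEFs, a little above the floor, and 4.62 and 4.72 in ESCs. The macrophage genes moved with these on the WT MEF array, and their part in the result was not tested. Hox genes set position along the body axis, and 12 of 27 measured members passed the floor. Of the 12, 7 were lower in ESCs and 1 was higher. In WT MEFs 11 members exceeded the floor and in WT ESCs 2, so the direction of this count followed largely from the filter. The median over the 27, values under the floor included, was -1.18. Hoxa5 read 7.85 in MEFs and 5.66 in ESCs, and Hoxb2 read 8.33 and 6.25. The member that was higher was Hoxc12, at 8.06 in ESCs and 5.19 in MEFs.

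**Figure D3:**
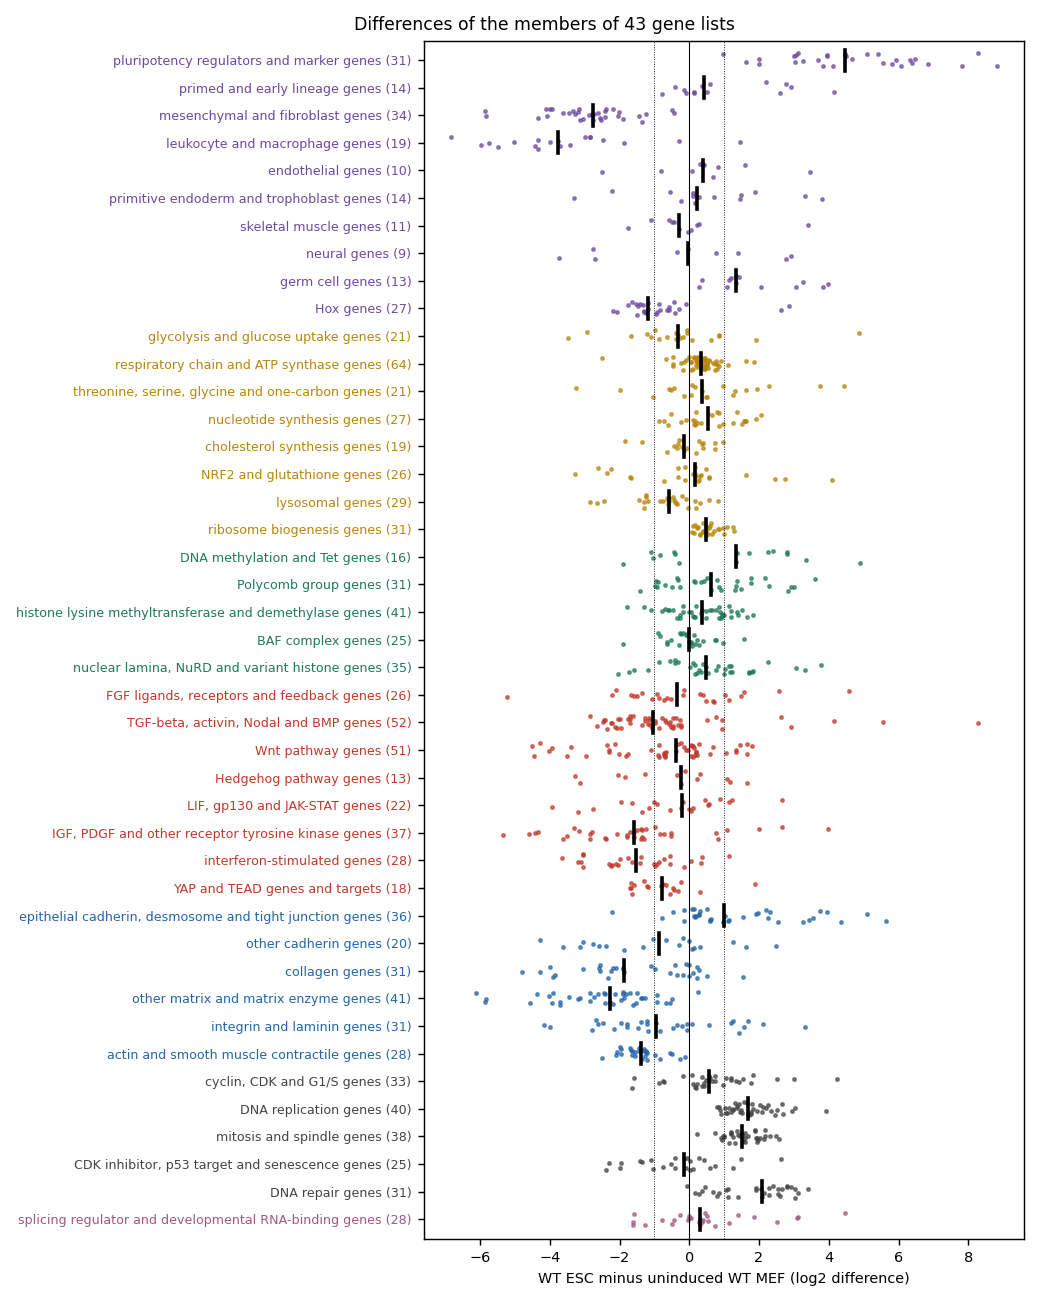
Each point is the log2 difference, WT ESC minus WT MEF without DOX, of 1 member of a gene list, with the number of measured members in brackets and a black bar at the list median. Label colours mark the themes and dotted lines mark 2-fold. Medians run from 4.48 for pluripotency genes to -3.76 for leukocyte and macrophage genes, and respiratory chain genes lie close together around 0.33.

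In metabolism most genes lay within 2-fold, as did 65.7% of all genes above the floor, and a few steps differed widely. Of 21 glycolysis and glucose uptake genes, 2 were higher and 5 lower in ESCs and 14 lay within 2-fold. Slc2a3, the glucose transporter GLUT3, read 12.68 in ESCs and 7.82 in MEFs, 29.2-fold higher, while the widespread transporter Slc2a1 differed by -0.27. Slc16a3, which exports lactate, read 7.68 and 11.15, and Pfkfb3, which makes an activator of phosphofructokinase, read 6.14 and 9.08. The subunits of lactate dehydrogenase parted, Ldhb at 1.90 and Ldha at -1.11.

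Respiratory chain and ATP synthase genes were close to equal. Of 61 above the floor, 57 lay within 2-fold, 3 were higher and 1 was lower, but 52 of the 61 had a positive difference and the median was 0.33, against 0.01 for all genes above the floor. The exceptions were tissue-type subunits of cytochrome oxidase and 1 general subunit. Cox7a1 differed by 1.87, Cox6b2, known from testis, by 1.64, Cox5a by 1.10, and Cox4i2, known from lung and low oxygen, by -2.51.

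Of 20 threonine, serine and one-carbon genes above the floor 7 were higher and 3 lower in ESCs. Of the glycine cleavage system, Amt, its aminomethyltransferase, read 10.41 in ESCs and 5.97 in MEFs, and Gldc, its decarboxylase, read 9.38 and 5.63, whereas its other components Gcsh and Dld differed by 0.37 and -0.52. The cytosolic enzymes Shmt1 and Mthfd1 differed by 2.30 and 1.93, and Gcat, which works after threonine dehydrogenase, by 1.63. The mitochondrial enzyme Aldh1l2 went the other way, at 6.53 in ESCs and 9.77 in MEFs. Among 25 nucleotide synthesis genes, 8 were higher and 0 lower. Rrm2, the regulated subunit of ribonucleotide reductase, read 11.29 and 9.23, and Ppat, the first enzyme of purine synthesis, differed by 1.92.

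NRF2 and glutathione genes had 3 of 25 members higher and 6 lower. Gsta4, which conjugates lipid aldehydes to glutathione, read 11.92 in ESCs and 7.84 in MEFs, 16.9-fold higher, and Nqo1, a quinone reductase, read 9.32 and 6.58. Slc7a11, the cystine importer, read 6.06 and 9.33, and the secreted or endoplasmic peroxidases Gpx3, Gpx7 and Gpx8 differed by -2.25, -1.68 and -1.71. Of 29 lysosomal genes 9 were lower and 0 higher, with a median of -0.58. Ctsh, a cathepsin, read 5.82 in ESCs and 8.67 in MEFs, and Lipa, the lysosomal acid lipase, read 8.07 and 10.51. Macrophage genes were high on the same MEF array and their part in the lysosomal values was not tested. Of 18 cholesterol synthesis genes above the floor 16 lay within 2-fold and 2 were lower, Hsd17b7 at -1.86 and Cyp51 at -1.36. All 31 ribosome biogenesis genes had a positive difference, but only Nop10, Polr1c and Dkc1 reached 2-fold and the median was 0.49. With the MEFs labelled KO with DOX in place of WT MEFs, 16 of the 31 reached it.

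Among chromatin genes, those of DNA methylation, Polycomb repression and nuclear structure often differed. Of 16 DNA methylation and Tet genes, 9 were higher and 3 lower in ESCs, with a median of 1.35. Between KO ESCs and the MEFs labelled KO without DOX 6 were higher and 2 lower, with a median of 0.74. Dnmt3l, the partner of the de novo methyltransferases that has no catalytic activity of its own, read 10.41 in ESCs and 5.50 in MEFs. Tet1 and Tet2, which oxidise methylcytosine, differed by 3.35 and 2.81, and Tet3 by -1.90. Uhrf1, which guides the maintenance enzyme to new DNA, differed by 2.41, Dnmt3b by 2.25 and Dnmt1 by 1.37. Dnmt3a, at 6.78 in ESCs and 7.62 in MEFs, differed by -0.83. Zfp57, which protects imprints, read 12.44 and 9.65.

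Of 28 Polycomb genes above the floor 12 were higher and 1 lower in ESCs. The median was 0.62 over 31 measured members and 0.82 over the 28. The core subunits of PRC2, the complex that methylates histone H3 at the site Utx demethylates, were among the 12, with Eed and Suz12 both at 1.78 and Ezh2 at 1.38. Its accessory subunits differed more, Mtf2 by 2.99, Jarid2 by 2.83 and Epop by 2.27. In PRC1, the chromobox protein Cbx7 read 9.88 in ESCs and 6.27 in MEFs and Phc1 read 10.83 and 7.92, whereas Bmi1 differed by less than 2-fold towards MEFs. Yaf2 was the Polycomb gene that was lower, at -1.41.

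Of 38 histone methyltransferase and demethylase genes 27 lay within 2-fold, 8 were higher and 3 lower. Over all genes above the floor 65.7% lay within 2-fold, a share close to that of this list. With KO ESCs in place of WT ESCs 13 were higher. Smyd3 differed by 1.84, against -1.78 for the demethylase gene Phf2, and Wdr5, a subunit shared by activating complexes, read 10.25 in ESCs and 8.75 in MEFs. BAF remodelling genes were the most even of the chromatin lists, with 21 of 23 within 2-fold and a median of -0.01. The ATPase gene Smarca2 read 6.88 in ESCs and 8.80 in MEFs while its alternative Smarca4 read 10.80 and 10.63, and Smarcd1 differed by 1.55. Among nuclear structure genes 14 of 33 were higher and 3 lower. Lmna, which encodes the lamins of differentiated and stiff tissues, read 7.65 and 9.69, and Lmnb1 read 10.14 and 8.30. The nucleoporin gene Nup210 read 9.67 and 5.90, and Hells, a remodeller needed for DNA methylation, read 10.12 and 7.06. The linker genes Syne1 and Sun2, which tie the lamina to the cytoskeleton, differed by -1.74 and -1.18.

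Signalling lists showed different ligands and receptors on each side. Among FGF genes 5 of 19 were higher and 8 lower in ESCs. Fgf4, the ligand made by pluripotent cells, read 10.89 in ESCs and 6.32 in MEFs, and the feedback and target genes Etv5, Spry2 and Spry4 differed by 2.56, 1.15 and 1.03. Fgf7, a mesenchymal ligand for epithelium, read 6.12 and 11.34, at least 16.0-fold lower in ESCs, and the receptors Fgfr2 and Fgfr1 differed by -2.21 and -1.06. In the TGF-beta superfamily 23 of 43 genes were lower and 5 higher, and the 5 were Tdgf1, Gdf3, Nodal, Lefty2 and Bmp7. All but Bmp7, which differed by 2.63, belong to the Nodal branch. The receptor Tgfbr2 read 7.48 in ESCs and 10.31 in MEFs, and the latent binding proteins Ltbp1, Ltbp2 and Ltbp3 differed by -2.42, -2.65 and -2.48.

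Of 31 Wnt pathway genes 14 were lower and 5 higher. The agonist genes Rspo2 and Rspo3 differed by -4.52 and -3.51, the antagonists Sfrp2, Sfrp4 and Dkk3 by -4.44, -4.28 and -3.95, and the receptor Fzd1 by -4.01. Wnt5a, a ligand of the non-canonical branch, read 6.33 in ESCs and 9.71 in MEFs. Axin2, a feedback target, and Fzd5 differed by 1.65 and 1.79 towards ESCs. Of 8 Hedgehog pathway genes 2 were higher and 5 lower. The co-receptors Gas1 and Boc differed by -3.28 and -3.14 and the signal transducer Smo by -1.86, while the ligand receptor Ptch1 and the transcription factor Gli2 differed by 1.07 and 1.64. The LIF and JAK-STAT list had 3 of 19 higher and 8 lower. The shared receptor subunit Il6st read 9.92 and 11.88, the oncostatin receptor Osmr read 7.14 and 11.09, and Lifr stayed within 2-fold. The target kinases Pim1 and Pim3 differed by 1.22 and 1.14.

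Growth factor genes of the IGF, PDGF and related families had 25 of 34 members lower and 4 higher in ESCs, at a median of -1.58. Igfbp4, an IGF-binding protein, read 6.57 in ESCs and 11.93 in MEFs, Igf1 read 5.39 and 9.82, and Igfbp5 read 6.28 and 10.86. The 4 that were higher were Kit at 3.97, Erbb3 at 2.65, Epha2 at 2.00 and Pdgfa at 1.08, the last against its receptor Pdgfra at -4.34.

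Adhesion genes parted by type. Of 36 measured epithelial cadherin, desmosome and tight junction genes 17 passed the floor, and 13 of these were higher in ESCs and 1 was lower. In WT ESCs 15 members exceeded the floor and in WT MEFs 5, so the filter favoured this direction. The median over all 36, values under the floor included, was 0.99, and over the 17 it was 2.31. Cdh1, which encodes E-cadherin, read 10.89 in ESCs and 5.79 in MEFs. The serine protease inhibitor Spint1 and its target St14, a membrane protease of epithelia, read 11.03 and 9.95 in ESCs against 5.38 and 5.60. Cldn4, a tight junction claudin, differed by 3.95 and Dsg2, a desmosomal cadherin, by 3.76. Cdh3 was the exception at -2.23, and Cdh2, N-cadherin, differed by -0.30. Between KO ESCs and the MEFs labelled KO without DOX the median of the list was 0.14, with 7 of 17 higher and 5 lower. Between KO ESCs and those labelled KO with DOX 11 of 12 were higher and 1 lower. Other cadherin genes had 9 of 13 lower, among them Cdh11 at -3.12 and the protocadherin Pcdh18 at -4.29, and 2 higher, Celsr1 at 2.48 and Cdh4 at 1.26. In WT MEFs 11 of these other cadherin genes exceeded the floor and in WT ESCs 5, so the filter favoured the lower side.

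Integrin and laminin genes had 13 of 23 lower and 5 higher. The collagen receptor subunits Itga11 and Itga1 differed by -4.17 and -2.62, the fibronectin receptor subunit Itga5 by -1.80 and the common subunit Itgb1 by -1.21. The laminin receptor subunits Itga6, Itga3 and Itgb4 differed by 1.58, 1.42 and 1.68 towards ESCs. Itgb4 differed by -2.54 between KO ESCs and the MEFs labelled KO without DOX, and by 1.32 between KO ESCs and those labelled KO with DOX. Laminin chains parted likewise, with Lama1 at 3.32 and Lama5 at 2.13 against Lama4 at -3.98 and Lama2 at -2.48.

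Cell cycle genes were higher in the ESC library over whole lists. Of 39 DNA replication genes that passed the floor 35 were higher in ESCs and 0 lower, at a median of 1.68, and the range over 40 members was 0.78 to 3.91. Orc1, the largest subunit of the origin recognition complex, read 9.26 in ESCs and 5.35 in MEFs. Mcm10, which helps to start the replicative helicase, read 10.16 and 7.11, and the polymerase genes Pola1 and Pole read 9.67 and 10.13 against 6.71 and 7.45. Of 38 mitosis and spindle genes 33 were higher and 0 lower, at a median of 1.52, led by Espl1, the protease that releases sister chromatids, at 2.58 and by the checkpoint kinase Bub1b at 2.50. Of 26 DNA repair genes above the floor 21 were higher and 0 lower. All 26 exceeded the floor in WT ESCs and 8 members did so in WT MEFs, so the filter favoured this direction. The median was 2.09 over 31 measured members and 2.28 over the 26. Fanci differed by 3.41, Msh6, of mismatch repair, by 3.13, Brca1 by 3.04 and Brca2 by 3.02, whereas the end-joining ligase Lig4 differed by -0.07.

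These counts depended on the fibroblast library. With the MEFs labelled KO with DOX in place of WT MEFs, 26 of 39 replication genes, 21 of 38 mitosis genes and 18 of 26 repair genes were higher in WT ESCs, and 0 were lower in each list. Between KO ESCs and the MEFs labelled KO without DOX the counts were 16 of 39, 18 of 38 and 19 of 27, again with 0 lower. Growth state of the cultures is not given in the labels.

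**Figure D4:**
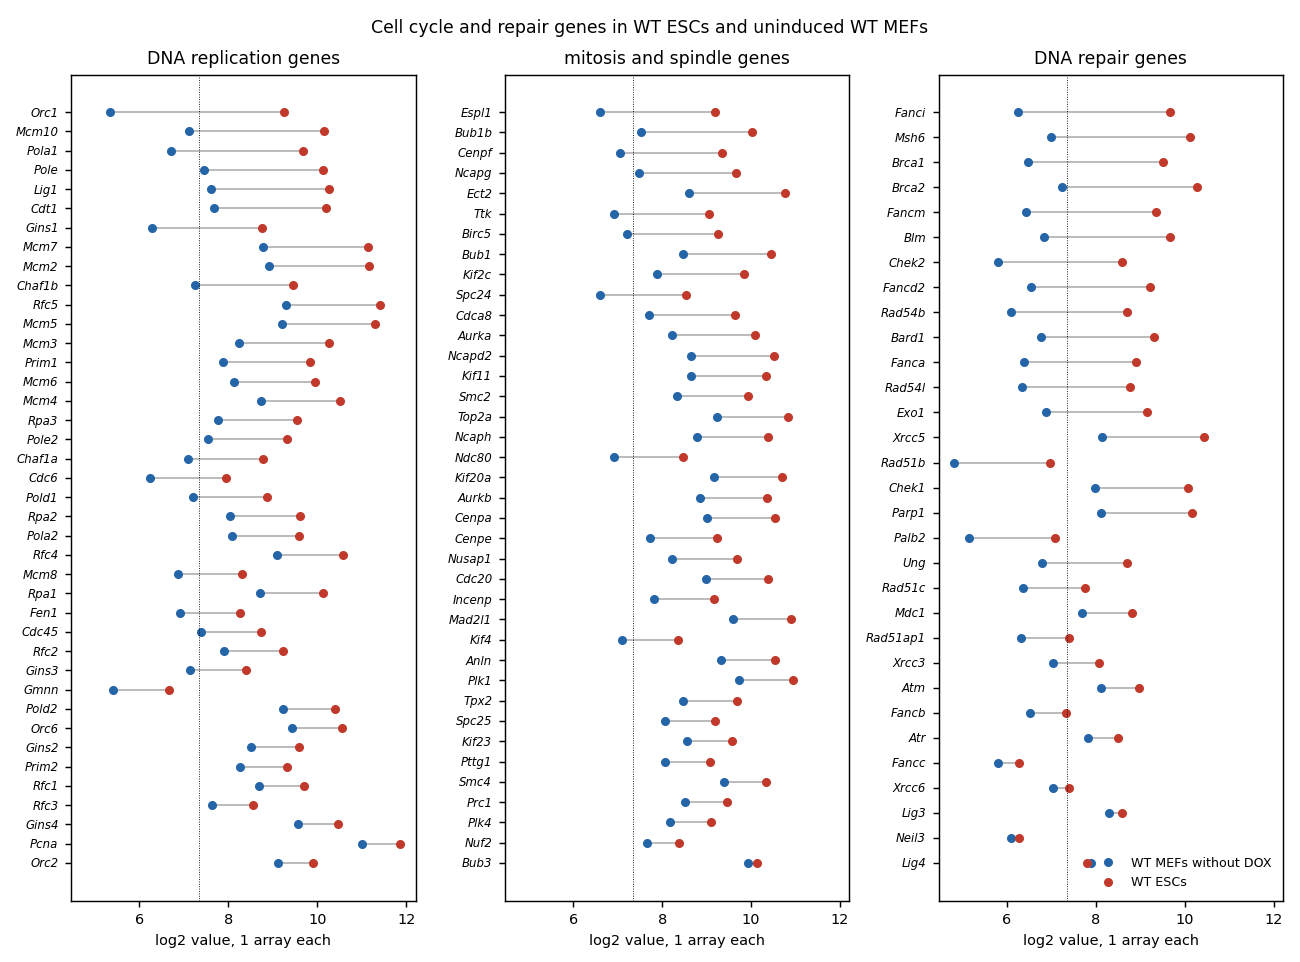
Blue points are log2 values in WT MEFs without DOX and red points are log2 values in WT ESCs for each measured replication, mitosis and repair gene, sorted by the difference, with 1 array each. The dotted line is the floor of 7.34. The red point lies to the right for every gene except Lig4, and the Orc1 value in MEFs lies under the floor.

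Cyclin, CDK and first gap phase genes were less uniform, with 10 of 30 higher and 2 lower. Mybl2, a transcription factor of cycling cells, read 11.28 in ESCs and 7.05 in MEFs, and Fbxo5, which restrains the anaphase-promoting complex, read 10.08 and 7.56. Ccne1 and Cdk2, the kinase pair that starts replication, differed by 1.43 and 1.53. Ccnd2 and Myc were the 2 that were lower, at -1.63 and -1.60. Of 20 CDK inhibitor, p53 target and senescence genes 7 were lower and 3 higher. Cdkn1c read 6.81 in ESCs and 8.80 in MEFs, Cdkn2b read 8.36 and 9.76 and the death receptor gene Fas read 5.98 and 8.37, whereas Perp, a p53 target of epithelia, read 9.94 and 7.30 and Mdm4 read 10.90 and 9.41.

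The E2F sequence TTTNNCGC lay in the windows of 8 of 32 replication genes, 3 of 32 mitosis genes and 5 of 28 repair genes, and in 7.77% of the 7800. The CCAAT box, CCAAT, lay in 21 of 32, 22 of 32 and 15 of 28, and in 36.7% of the 7800. It also lay in 15 of 24 windows of the contractile genes, a list that was lower in ESCs. Both were read on both strands and neither contains the other. The windows printed are those of the replication gene with an E2F match and of the mitosis gene with a CCAAT match that had the largest deposited differences, Orc1 (chr4:108579204-108579453, + strand, the E2F match, on the reverse strand, in capitals) and Espl1 (chr15:102296043-102296292, + strand, the CCAAT box in capitals on the reverse strand).
Orc1: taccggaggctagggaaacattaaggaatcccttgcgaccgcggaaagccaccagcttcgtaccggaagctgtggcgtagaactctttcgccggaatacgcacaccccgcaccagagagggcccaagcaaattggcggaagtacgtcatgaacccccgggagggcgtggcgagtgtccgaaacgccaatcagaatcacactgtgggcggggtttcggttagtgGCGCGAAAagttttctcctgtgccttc
Espl1: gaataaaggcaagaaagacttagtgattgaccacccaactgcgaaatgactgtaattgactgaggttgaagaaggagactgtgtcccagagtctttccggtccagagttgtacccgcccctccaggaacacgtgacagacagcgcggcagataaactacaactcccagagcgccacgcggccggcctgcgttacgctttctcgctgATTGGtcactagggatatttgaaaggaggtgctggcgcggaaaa

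Over all genes the promoters of both directions differed from those of genes within 2-fold. A high CpG ratio, observed over expected CpG above 0.6, was found for 66.0% of 1121 ESC-high genes, 57.0% of 1459 MEF-high genes and 78.6% of 5220 genes within 2-fold. The TATA box, TATAAA, lay in 7.14%, 9.32% and 5.31%, the AP-1 sequence TGANTCA in 4.64%, 5.41% and 3.16%, and the E2F sequence in 9.46%, 5.07% and 8.16%. By list, a high CpG ratio was found for 26 of 32 replication genes and 29 of 32 mitosis genes, but for 8 of 19 pluripotency, 9 of 27 matrix and 1 of 12 macrophage genes. These shares describe the windows of this gene set and carry no test.

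RNA-binding genes of development had the largest differences in their list, of which 5 of 25 were higher and 4 lower. Trim71, a partner of let-7 control, read 10.19 in ESCs and 5.73 in MEFs, Lin28a, which blocks let-7 maturation, read 8.87 and 5.74, and Rbpms2 read 11.07 and 7.98. The splicing regulator Mbnl1, which favours exons of differentiated cells, read 9.69 and 11.31.

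The 18 pairs of related genes were chosen with earlier results of these data known, so their counts say nothing about related genes in general. In 4 pairs 1 member was 2-fold or more higher and the other 2-fold or more lower. These were Tet1 against Tet3, Mycn against Myc, Lmnb1 against Lmna and Ldhb against Ldha. Mycn read 8.55 in ESCs and 5.55 in MEFs. In 14 pairs the differences had opposite signs, but Fgfr4 and Cbx8, members of such pairs, lay under the floor on both arrays. In the remaining pairs the differences of both members had the same sign. They were Ezh2 at 1.38 and Ezh1 at 0.50, Hk2 at 0.84 and Hk1 at 0.07, and Cox7a1 at 1.87 and Cox7a2 at 0.48. Lin28a at 3.13 and Lin28b at 1.86 also shared a sign, but Lin28b read 6.42 in ESCs and 4.56 in MEFs, both under the floor. The gap between Slc2a3 and Slc2a1, all of whose values exceeded the floor, was 5.14. That between Cdh1 and Cdh2 was 5.41, with Cdh1 under the floor in MEFs, and 2.06 between KO ESCs and the MEFs labelled KO without DOX. Levels of different genes are not compared, since each probe set has its own response.

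**Figure D5:**
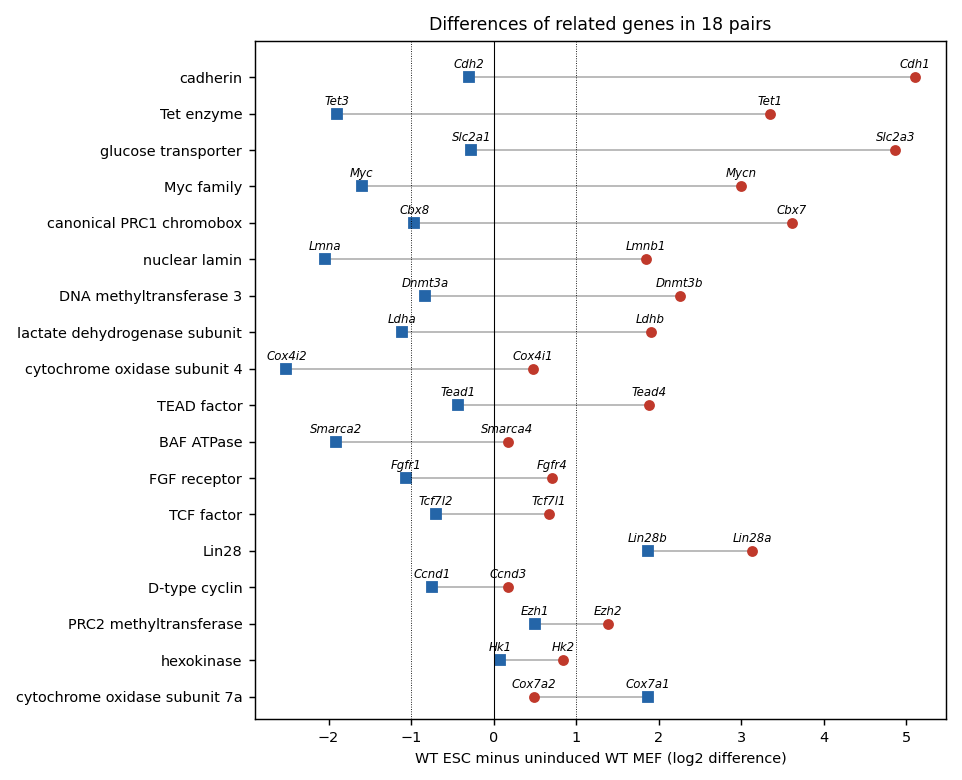
Each line joins the log2 differences, WT ESC minus WT MEF without DOX, of the members of a pair of related genes, the first listed as a red circle and the second as a blue square, with dotted lines at 2-fold. Pairs are sorted by the gap in deposited values, which for some pairs, such as Cdh1 and Cdh2 at the top, rests on a value under the floor. In the pair at the bottom, Cox7a2 and Cox7a1, the order is turned.

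The same contrast could be read from arrays that the WT comparison did not use. Between KO ESCs and the MEFs labelled KO with DOX, 1102 of the 1406 ESC-high genes (78.4%) were again higher in ESCs and 2 were lower. These made up 63.9% of the 1724 genes higher in that pair. Of the 1912 MEF-high genes, 1545 (80.8%) were again lower in ESCs and 2 were higher, and they made up 72.6% of the 2129 in that pair. Against the MEFs labelled KO without DOX the shares of the WT lists were 64.6% and 59.7%, with 10 and 7 genes in the opposite direction. As background, with DOX 17.7% of genes past the floor were higher and 21.9% lower in that pair (39.6% in all), and without DOX 18.7% and 17.1% (35.7% in all). No array is shared with the WT pair, but genotype, culture and the doubt about the KO labels differ as well.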

How the data were processed

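The authors deposited log2 expression values obtained by RMA in Affymetrix Expression Console according to the notes on processing that the submitters gave. Software versions and the genome build: not given in the sources used here. RMA corrects background, normalizes and summarises probe sets. Of the 7 arrays 6 had medians of 7.68 to 7.84, and Nanog KO cells had 8.55. There were 0 missing values. Precision is limited by having 1 array per condition.

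Symbols came from the annotation of the array platform. Of the rows, 14894 had 1 symbol, 925 had several and 5992 were unnamed. Gene IDs of 14854 were in the RefSeq table of GRCm38.p6. Of 160 counted genes with several rows, 6 had rows that differed in sign. A floor of 7.34, the 40th percentile of all values, served as the filter on low values. Differences and list medians were computed in Python 3.11.15 with pandas 2.3.3 and numpy 2.4.6, with no test, and checked on simulated data. The 43 lists hold 1289 genes, 1160 of them measured. The members, lists, related pairs and motifs were chosen with earlier results of these data known. Named were the 15 largest differences in each direction, the reprogramming factors, Nanog, Utx-related, Y-linked and X-inactivation genes, the related pairs, and up to 4 members of each list with the largest differences in each direction. Other list members named were chosen after their values were seen. Alternatives were array medians, quantile normalization, the floor, the row rule, a log2 threshold of 1.5, other arrays and a window of 100 bases.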

Additional observations from a re-analysis of the deposited data

Results flagged for a closer look

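Of 1181 genes that were listed or named, 6 were 2-fold or more apart one way in the WT pair and the other way in a pair of KO arrays, and the difference between pairs was not tested. Uty, on the Y chromosome, differed by 1.10 in the WT pair, and by -3.27 and -3.94 between KO ESCs and the MEFs labelled KO without and with DOX. Aldh1l1, a folate enzyme, differed by 1.31 in the WT pair and by -1.44 against the MEFs labelled KO with DOX. The other 4 were 2-fold apart in the opposite direction against the MEFs labelled KO without DOX. Dsp, a desmosomal protein, differed by 2.24 in the WT pair and by -1.34 there, Itgb4 by 1.68 and -2.54, Tek, an endothelial receptor, by 1.59 and -1.01, and Itga9 by -1.22 and 1.46. Between KO ESCs and the MEFs labelled KO with DOX, Dsp, Itgb4 and Tek differed by 1.11, 1.32 and 2.04, in the direction of the WT pair. Itga9 was positive there too, at 0.77, against the direction of the WT pair.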

How the results depend on the processing

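With array medians aligned, quantile normalization, no floor, a floor at the 60th percentile (8.48) or a mean of all rows of a gene, the counts ran from 994 to 1750 genes higher and from 1347 to 2279 lower in ESCs, within 1.5 times of the values reported. At a log2 threshold of 1.5 they were 792 and 1239. Under the 2 scalings and the row rule all 43 list medians stayed within the 95% interval of the reported median. That interval was taken from the ranked members of each list and does not measure variation between arrays. Over members above the floor the epithelial median was 2.31 and the collagen median -2.55.

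Other arrays moved more. Between KO ESCs and the MEFs labelled KO without DOX the medians were 3.59 for pluripotency, -4.10 for fibroblast, -0.96 for macrophage, 0.26 for respiratory chain, 0.90 for ribosome biogenesis, 0.18 for BAF, -0.78 for interferon, 0.14 for epithelial, -3.76 for matrix, -1.71 for contractile, 0.84 for replication, 0.96 for mitosis, 1.30 for repair, 0.74 for DNA methylation, -1.26 for YAP and TEAD, -0.59 for TGF-beta and -0.68 for Hox genes. With those labelled KO with DOX they were -4.69 for fibroblast, -1.67 for macrophage, 1.11 for ribosome biogenesis, -1.74 for YAP and TEAD, -4.37 for matrix, -2.62 for contractile, 1.20 for mitosis, -1.02 for lysosomal and 2.10 for germ cell genes. With KO ESCs replacing WT ESCs, chosen after seeing the data, they were -4.70 for fibroblast, -1.76 for YAP and TEAD, -4.38 for matrix and -2.86 for contractile genes. With the MEFs labelled KO with DOX replacing WT MEFs, also chosen later, they were -1.55 for macrophage, 1.20 for replication and 1.05 for mitosis genes. The cause was not tested. Of 75 genes recomputed singly Uty alone among those called in the WT pair changed sign, at -3.27 and -3.94, and some genes that were not called, Eif2s3y and Kdm6b among them, also did. With a window of 100 bases the motif shares of called genes were lower and a high CpG ratio was found for 70.7% of ESC-high and 62.6% of MEF-high genes. No paired analysis was possible because each condition had 1 array.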

Other observations

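Among the 5992 rows without a gene name, 3122 exceeded the floor, and at 2-fold 426 lay towards WT ESCs and 219 towards WT MEFs. They were 2-fold apart in 20.7% of cases, against 34.3% of named genes. They lean towards ESCs, whereas named genes lean towards MEFs.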
